A study of Homo sapiens with 9 samples.

Results

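The 28 genes described here carry out the synthesis, uptake, movement and storage of cholesterol, or control these steps. They were taken by symbol from a list ordered by pathway step, a rule that names no measured value though the list was drawn up with earlier results of these data known, and all 28 were found on primary chromosomes among the 63677 genes of the deposited table. Messenger RNA was sequenced from HCT116, a human colon carcinoma cell line of wild-type genotype by its label, 48 h after a lipid reagent delivered small interfering RNA (siRNA). The 3 groups of 3 replicates received a control siRNA (siControl), an siRNA against RNF40 (siRNF40), which encodes a subunit of the ubiquitin ligase for histone H2B, or an siRNA against TGM2 (siTG2), which encodes transglutaminase 2. All 3 groups were transfected, untransfected cells are not analysed here, and the number of siRNA sequences per target and the origin of the replicates in separate cultures are not given. The p-values therefore measure the spread between these libraries, which may be technical.

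The libraries held 29161285 to 35743918 reads assigned to genes, and levels are normalized read counts in which 1 read equals 0.88 to 1.10 units. RNF40 read 2565 to 3004 units in siControl and 497 to 535 in siRNF40, which left 18.7% of the control mean. In siTG2 RNF40 read 2158 to 2506 units, below every siControl library, at 82.8% of the control mean (log2 fold change -0.27, limma adjusted p = 0.019). TGM2 ranged over 554 to 702 units with control siRNA, 830 to 963 with siRNF40 and 59.4 to 155 with siTG2, where 18.5% of the control mean was left. All 8 epithelial markers were present, and their summed level per library lay between 100927 and 110711 units for siControl, 148332 and 174519 for siRNF40, and 88071 and 99926 for siTG2. Of 6 fibroblast markers, DCN and LUM were at 0 in all libraries. The list summed per library to between 822 and 997 units for siControl, 1371 and 1705 for siRNF40, and 1016 and 1172 for siTG2. Nearly all of that sum was COL1A1, with means of 889 units in siControl, 1463 in siRNF40 and 1050 in siTG2. COL1A1 had log2 fold changes of 0.72 in siRNF40 (limma adjusted p = 1.3e-05) and 0.24 in siTG2 (limma adjusted p = 0.083). The 6 blood cell markers summed to 10.4 to 19.6, 0 to 13.3 and 17.6 to 48.0 units. The part of these marker levels in the results below was not tested.

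Cholesterol is built from acetyl-CoA through mevalonate, the isoprenoid units, squalene and lanosterol, and the enzymes sit largely in the endoplasmic reticulum. When sterols in that membrane run low, SCAP escorts the SREBP2 precursor to the Golgi, where proteases release a transcription factor that activates most genes of synthesis and uptake, while the INSIG proteins hold the complex back when sterols are plentiful. When sterols are plentiful, oxysterols also activate the liver X receptors, whose targets include the exporter ABCA1 and the ligase MYLIP. Colon carcinoma cells, like other dividing cells, use this supply for new membranes.

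In siRNF40 the gene for SREBP2, INSIG1, the enzyme genes MVK, PMVK, FDPS, FDFT1 and DHCR7, and the lysosomal carrier NPC2 were higher than in siControl. Of the late sterol steps, TM7SF2, MSMO1 and EBP were lower, while DHCR7 was among the higher genes. ACAT2 and HMGCS1, which come first in synthesis, were not called. In siTG2 the exporter ABCA1 rose most, INSIG1, LSS, STARD4, FDFT1, MYLIP and TM7SF2 were also higher, and INSIG2 and NPC1 were lower. A gene is called here where limma, fitted to log2 of the normalized count plus 1 over all genes with a mean of at least 10, gave a Benjamini-Hochberg adjusted p under 0.05. All 28 genes passed that minimum. In siRNF40, 8 were called higher, 3 lower and 17 were not called. Of all 17663 genes tested in that contrast, 45.3% were called, 21.7% as higher and 23.6% as lower, so the 11 of 28 lie close to that background. The median log2 fold change of the 28 genes was 0.15, beside 0.02 over all genes tested. Against siControl, siTG2 had 7 of the 28 called higher, 2 lower and 19 not called, beside 31.3% of all genes called, 12.8% higher and 18.5% lower. The median was 0.05, beside -0.01 over all genes. Of all siTG2 calls 40.9% were higher, and 67.2% were with libraries scaled to equal totals, where 11 of the 28 genes were called higher. The library values of the knockdown and control groups did not overlap for 14 of the 28 genes in siRNF40, beside 53.2% of all genes, and for 14 in siTG2, beside 46.5%. In bulk RNA, fewer cells that express a gene and less RNA per cell cannot be told apart. Both knockdown contrasts use the same 3 control libraries.

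**Figure D1:**
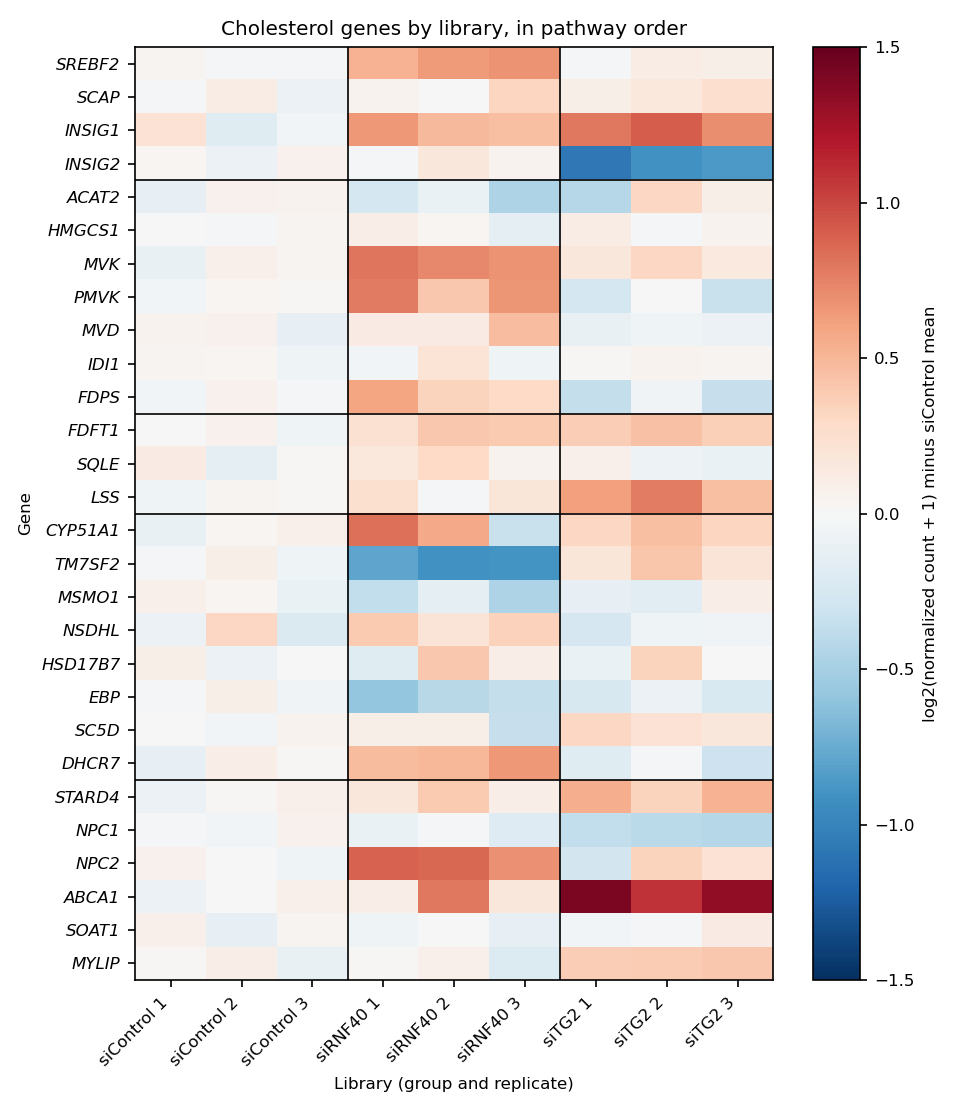
Each cell is the log2(normalized count + 1) of a gene (rows, in pathway order) in a library (columns, 3 per group) minus the siControl mean, in red where higher and in blue where lower; black lines part the groups and the pathway steps. SREBF2, MVK and NPC2 are red in the 3 siRNF40 libraries, TM7SF2 is blue there, ABCA1 is red and INSIG2 blue in the 3 siTG2 libraries, and CYP51A1 differs among the siRNF40 libraries.

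The regulators moved apart from each other. SREBF2, which encodes the SREBP2 precursor (chr22:42229109-42303312, hg19, plus strand), read 5138, 4934 and 4894 units in siControl, 7188, 7768 and 7959 in siRNF40 and 4934, 5380 and 5285 in siTG2. Every siRNF40 library lay above all others, and siTG2 overlapped siControl. The log2 fold change, here and below on the scale of log2(normalized count + 1) and with limma's standard error after ±, was 0.61 ± 0.063 (limma adjusted p = 2.3e-07) in siRNF40, a 1.53-fold higher mean, and 0.06 ± 0.063 in siTG2 (limma adjusted p = 0.52). With scaling to equal library totals or quantile normalization, SREBF2 was called higher in siTG2 too, at 0.20 (limma adjusted p = 0.019) and 0.23 (limma adjusted p = 0.0090). INSIG1, an anchor that retains SCAP and is itself a target of SREBP2 (chr7:155089486-155101945, hg19, plus strand), read 521, 396 and 434 units in siControl, 701, 629 and 611 in siRNF40 and 776, 839 and 727 in siTG2. Both knockdown groups lay above the controls, with log2 fold changes of 0.53 ± 0.12 (limma adjusted p = 0.00098) in siRNF40 and 0.80 ± 0.12 (limma adjusted p = 3.1e-05) in siTG2. INSIG2, the second INSIG anchor (chr2:118846028-118868573, hg19, plus strand), read 1216, 1126 and 1248 units in siControl, 1177, 1341 and 1235 in siRNF40 and 567, 637 and 657 in siTG2. It was low in siTG2 only, where 51.8% of the control mean was left. The log2 fold change there was -0.95 ± 0.092 (limma adjusted p = 2.5e-07), beside 0.06 ± 0.092 (limma adjusted p = 0.61) in siRNF40. SCAP, the escort protein, ranged from 1743 to 2314 units over the 9 libraries, and its groups overlapped. Under the same 2 scalings it was called higher in siTG2, at 0.31 (limma adjusted p = 0.011) and 0.29 (limma adjusted p = 0.019). Within these 4 genes, the 2 INSIG genes had called changes of opposite sign in siTG2. An antisense gene overlapping SREBF2, RP5-821D11.7, read 110 ± 10.0 units in siControl and 164 ± 31.0 in siRNF40 (n = 3). Whether counting used strand is not given in the sources used here, so reads in such overlaps cannot be assigned to either strand.

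The promoter letters of SREBF2, INSIG1 and INSIG2 are shown with exact matches to words bound by SREBP2 and its partner NF-Y. Looser forms of these words were not searched, and the SCAP promoter is not printed. The 250 bases before the start site are given 5′ to 3′ from RefSeq on GRCh38.p14, a newer build than that of the table, and capitals mark the sterol regulatory element word TCACNCCAC and the CCAAT box, read as CCAAT or as its reverse complement. SREBF2 lies at chr22:41832855-41833104 on the plus strand, INSIG1 at chr7:155297628-155297877 on the plus strand and INSIG2 at chr2:118088221-118088470 on the plus strand.
SREBF2: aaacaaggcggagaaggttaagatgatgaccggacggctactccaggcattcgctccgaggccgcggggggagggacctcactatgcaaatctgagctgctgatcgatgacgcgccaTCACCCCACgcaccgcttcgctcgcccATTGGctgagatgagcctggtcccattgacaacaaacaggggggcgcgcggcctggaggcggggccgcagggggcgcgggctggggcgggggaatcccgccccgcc
INSIG1: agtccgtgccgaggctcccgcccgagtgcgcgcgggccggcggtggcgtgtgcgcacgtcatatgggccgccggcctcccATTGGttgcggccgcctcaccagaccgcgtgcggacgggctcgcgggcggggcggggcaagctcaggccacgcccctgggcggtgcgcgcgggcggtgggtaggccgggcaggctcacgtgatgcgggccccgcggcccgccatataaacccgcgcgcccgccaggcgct
INSIG2: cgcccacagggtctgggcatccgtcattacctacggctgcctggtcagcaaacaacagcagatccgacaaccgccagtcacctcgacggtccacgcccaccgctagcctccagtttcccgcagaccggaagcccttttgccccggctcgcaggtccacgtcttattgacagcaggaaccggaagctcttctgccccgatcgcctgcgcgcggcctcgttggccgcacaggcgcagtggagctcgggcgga
The SREBF2 window holds both words, INSIG1 holds a CCAAT box, and INSIG2, which fell in siTG2, holds neither. INSIG1 also holds the E-box CACGTG, which is not marked by capitals. A window without an exact match can still hold another form of these sites. RefSeq windows from 250 bases before to 50 after the start were matched for 25 of the 28 genes, in 32 windows. Searched on both strands, TCACNCCAC was found in 1 of the 32 windows, that of SREBF2, and in 1.12% of all 34796 windows. CCAAT was in 21 of 32 windows (65.6%), those of 19 genes, beside 34.6% of all windows and 34.4% of the windows of tested protein-coding genes. The GC box GGGCGG was in 30 of 32 windows (93.8%), beside 44.9% of all windows and 64.7% of those of tested protein-coding genes. The E-box CACGTG was in 6 of 32 (18.8%), beside 7.20% and 8.98%. These words can overlap other motifs, and a match in this window is a description of its letters only.

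Among the 7 genes of the mevalonate arm, 3 rose in siRNF40 and none was called in siTG2, beside 21.7% of all genes called higher in siRNF40 and 31.3% called in siTG2. MVK, mevalonate kinase (chr12:110011060-110035067, hg19, plus strand), read 331, 379 and 368 units in siControl, 627, 594 and 574 in siRNF40 and 403, 446 and 397 in siTG2. All siRNF40 libraries lay above every other library. Its log2 fold change was 0.74 ± 0.11 (limma adjusted p = 3.0e-05) in siRNF40 and 0.21 ± 0.11 (limma adjusted p = 0.18) in siTG2. With libraries scaled to equal totals MVK was called higher in siTG2 as well, at 0.35 (limma adjusted p = 0.023). PMVK, the kinase of the next step (chr1:154897210-154909467, hg19, minus strand), read 740, 779 and 774 units in siControl, 1310, 1009 and 1211 in siRNF40 and 637, 760 and 605 in siTG2. Again siRNF40 stood above both other groups, by 0.61 ± 0.11 on the log2 scale over siControl (limma adjusted p = 0.00014). The siTG2 value was -0.20 ± 0.11 (limma adjusted p = 0.18). FDPS, which makes farnesyl diphosphate (chr1:155278539-155290457, hg19, plus strand), read 1211, 1305 and 1231 units in siControl, 1884, 1575 and 1533 in siRNF40 and 974, 1208 and 986 in siTG2. The groups did not overlap, with siRNF40 above siControl by 0.41 ± 0.099 on the log2 scale (limma adjusted p = 0.0023) and siTG2 at -0.25 ± 0.099 (limma adjusted p = 0.064). FDPS was called lower in siTG2 in 4 of 19 alternatives, among them the fit of only the groups compared (limma adjusted p = 0.038) and that without siTG2 replicate 2 (-0.35, limma adjusted p = 0.013). MVD, the decarboxylase between PMVK and IDI1, had log2 fold changes of 0.23 and -0.09, neither called, and was called higher in siRNF40 in 3 alternatives. ACAT2, the thiolase that opens the path, HMGCS1, the HMG-CoA synthase, and IDI1, the isopentenyl diphosphate isomerase, were called in neither contrast. Their log2 fold changes lay between -0.27 and 0.05. MVK overlaps MMAB on the other strand over 620 bases, and MMAB was not called in either contrast. ACAT2 overlaps TCP1 and SOD2, whose means were far higher, at 8866 and 2729 units in siControl. TCP1 was higher in siRNF40 (0.36, limma adjusted p = 4.5e-05) and lower in siTG2 (-0.41, limma adjusted p = 2.5e-05). SOD2 likewise stood at 0.25 in siRNF40 (limma adjusted p = 0.0085) and -0.41 in siTG2 (limma adjusted p = 0.00030). The share of these neighbours in the ACAT2 values was not tested.

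The squalene arm, 3 genes, had 1 gene called in siRNF40 and 2 in siTG2, all higher. Over all genes, 21.7% were called higher in siRNF40 and 12.8% in siTG2. FDFT1, squalene synthase and the first step that commits carbon to sterols, read 2839, 2991 and 2741 units in siControl, 3353, 3770 and 3752 in siRNF40 and 3700, 3857 and 3651 in siTG2. Both knockdown groups lay above all controls, by 0.34 ± 0.069 (limma adjusted p = 0.00044) and 0.39 ± 0.069 (limma adjusted p = 0.00025) on the log2 scale. LSS, which folds oxidosqualene into lanosterol (chr21:47608055-47648738, hg19, minus strand), read 872, 941 and 922 units in siControl, 1081, 902 and 1034 in siRNF40 and 1399, 1548 and 1251 in siTG2. Only siTG2 stood clear of the controls, with a log2 fold change of 0.61 ± 0.097 (limma adjusted p = 8.1e-05), while siRNF40 gave 0.14 ± 0.097 (limma adjusted p = 0.26). SQLE, the epoxidase between FDFT1 and LSS, had log2 fold changes of 0.17 and -0.03 and was not called, and in 2 alternatives it was called higher in siRNF40 (0.23 in each).

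The 8 genes of the sterol arm, which turn lanosterol into cholesterol, held the 3 falls of siRNF40. Over all genes, 23.6% were called lower in siRNF40. TM7SF2, a sterol C14 reductase (chr11:64879317-64883856, hg19, plus strand), read 1355, 1468 and 1315 units in siControl, 793, 735 and 738 in siRNF40 and 1559, 1832 and 1576 in siTG2. The 3 groups did not overlap: siRNF40 was the lowest and siTG2 the highest. The log2 fold change was -0.87 ± 0.088 (limma adjusted p = 2.0e-07) in siRNF40 and 0.26 ± 0.088 (limma adjusted p = 0.030) in siTG2. The second of these calls was lost without siControl replicate 1 (0.25, limma adjusted p = 0.093), siControl replicate 3 (0.23, limma adjusted p = 0.12) or siTG2 replicate 2 (0.19, limma adjusted p = 0.16). VPS51, which shares 16 bases with TM7SF2 on the same strand, was higher in siRNF40 by 0.72 ± 0.10 on the log2 scale (limma adjusted p = 1.0e-05), opposite in sign to TM7SF2.

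EBP, the sterol isomerase (chrX:48379546-48387104, hg19, plus strand), read 642, 696 and 630 units in siControl, 439, 489 and 511 in siRNF40 and 557, 617 and 561 in siTG2. Both knockdown groups lay below the controls, but only siRNF40 was called, at -0.45 ± 0.11 (limma adjusted p = 0.0017) beside -0.18 ± 0.11 (limma adjusted p = 0.21) in siTG2. MSMO1, the C4 methyl oxidase (chr4:166248775-166264312, hg19, plus strand), read 2647, 2556 and 2347 units in siControl, 1953, 2292 and 1820 in siRNF40 and 2313, 2237 and 2684 in siTG2. It was lowest in siRNF40, at -0.32 ± 0.091 on the log2 scale (limma adjusted p = 0.0073), and siTG2 overlapped siControl. DHCR7, which completes cholesterol from its last precursor (chr11:71139239-71163914, hg19, minus strand), read 903, 1049 and 996 units in siControl, 1359, 1385 and 1539 in siRNF40 and 867, 967 and 792 in siTG2. It was the gene of this arm called higher in siRNF40, by 0.54 ± 0.096 on the log2 scale (limma adjusted p = 0.00013), and siTG2 gave -0.17 ± 0.096 (limma adjusted p = 0.20). An antisense gene across 3484 bases of DHCR7, RP11-660L16.2, read 82.0 ± 10.0 units in siControl, 321 ± 60.4 in siRNF40 and 59.1 ± 3.86 in siTG2 (n = 3). Its share in the DHCR7 result was not tested.

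CYP51A1, which removes the C14 methyl group of lanosterol (chr7:91741465-91772266, hg19, minus strand), differed among replicates. It read 303, 334 and 344 units in siControl, 578, 486 and 259 in siRNF40 and 406, 447 and 408 in siTG2. The third siRNF40 library lay below every control and the other two lay above every other library. The log2 fold change in siRNF40 was 0.35 ± 0.20 (limma adjusted p = 0.16), and without replicate 3 it was 0.70 ± 0.13 (limma adjusted p = 0.00026). In siTG2 its libraries lay above all controls, at 0.36 ± 0.20 (limma adjusted p = 0.19), and this too was called in the fit without siRNF40 replicate 3 (limma adjusted p = 0.023) and in that of only the groups compared (limma adjusted p = 0.024). NSDHL, HSD17B7 and SC5D, the remaining enzymes of this arm, were called in neither knockdown against siControl, with log2 fold changes between -0.12 and 0.31. SC5D was called higher in siTG2 in 4 alternatives, with 0.38 (limma adjusted p = 0.0075) under equal library totals beside 0.23. NSDHL was called higher in siRNF40 in 3, with 0.47 (limma adjusted p = 0.0071) without siControl replicate 2 beside 0.31.

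Letters of the TM7SF2 and LSS promoters are given because these genes of synthesis had their largest changes in different knockdowns. Each holds a CCAAT box, in capitals as its reverse complement, as did 19 of the 25 genes with windows. TM7SF2 lies at chr11:65111622-65111871 on the plus strand and LSS at chr21:46228775-46229024 on the minus strand of GRCh38.p14.
TM7SF2: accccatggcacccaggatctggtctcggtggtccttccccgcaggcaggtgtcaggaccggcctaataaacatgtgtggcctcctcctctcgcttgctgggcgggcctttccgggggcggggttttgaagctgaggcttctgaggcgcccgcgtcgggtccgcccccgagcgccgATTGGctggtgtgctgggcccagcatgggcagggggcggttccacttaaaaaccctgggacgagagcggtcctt
LSS: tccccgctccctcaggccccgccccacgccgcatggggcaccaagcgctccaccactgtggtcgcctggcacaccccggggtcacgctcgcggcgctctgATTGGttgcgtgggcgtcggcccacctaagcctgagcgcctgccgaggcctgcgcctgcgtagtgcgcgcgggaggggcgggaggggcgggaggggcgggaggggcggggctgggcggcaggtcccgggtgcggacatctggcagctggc

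The carriers, the exporter, the storage enzyme and the receptor ligase form a group of 6. Of these, 1 was called higher in siRNF40, beside 21.7% of all genes. In siTG2, 3 were called higher and 1 lower, beside 12.8% and 18.5% of all genes. ABCA1, which loads cellular cholesterol onto lipid-poor apolipoproteins (chr9:107543283-107690518, hg19, minus strand), read 120, 129 and 135 units in siControl, 138, 223 and 144 in siRNF40 and 342, 274 and 324 in siTG2. Every siTG2 library was above all others, and the 2.44-fold higher mean was the largest change among the 28 genes in either knockdown. The log2 fold change was 1.28 ± 0.19 (limma adjusted p = 4.2e-05), beside 0.36 ± 0.19 (limma adjusted p = 0.14) in siRNF40. MYLIP, a ligase that sends lipoprotein receptors to the lysosome (chr6:16129356-16148479, hg19, plus strand), read 448, 478 and 410 units in siControl, 449, 470 and 385 in siRNF40 and 577, 578 and 589 in siTG2. It was higher in siTG2 by 0.39 ± 0.11 on the log2 scale (limma adjusted p = 0.015), a call lost without siControl replicate 3 (0.33, limma adjusted p = 0.073). ABCA1 and MYLIP are both textbook targets of the liver X receptors. An exact match to the consensus response element of these receptors, a spaced direct repeat, was in 0 of the 32 promoter windows. Such a match was in 0.0201% of all windows. Looser forms of this element were not searched across the windows, so other windows can still hold such a form. The ABCA1 letters printed below do hold one when read as their reverse complement. There each repeat differs from the consensus at a single base, and the spacing is the same. The part of these receptors in the results was not tested.

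The ABCA1 promoter, shown for the member with the largest change, lies at chr9:104928156-104928405 on the minus strand of GRCh38.p14 and holds neither TCACNCCAC nor CCAAT.
ABCA1: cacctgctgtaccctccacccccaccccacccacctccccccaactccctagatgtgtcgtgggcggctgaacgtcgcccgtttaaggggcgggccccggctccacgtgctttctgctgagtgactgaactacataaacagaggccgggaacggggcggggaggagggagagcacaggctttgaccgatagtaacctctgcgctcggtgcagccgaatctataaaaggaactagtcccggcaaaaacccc

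NPC2, the soluble carrier that hands lysosomal cholesterol to NPC1 (chr14:74942895-74960880, hg19, minus strand), read 1041, 1000 and 953 units in siControl, 1837, 1807 and 1601 in siRNF40 and 822, 1255 and 1160 in siTG2. All siRNF40 libraries exceeded all others, and the log2 fold change of 0.81 ± 0.12 (limma adjusted p = 2.0e-05) was the largest rise of the 28 genes in siRNF40. In siTG2 the libraries lay on both sides of the controls, at 0.09 ± 0.12 (limma adjusted p = 0.61), and without siTG2 replicate 1 NPC2 was called higher there, at 0.27 (limma adjusted p = 0.042). NPC1, the membrane protein that receives this cholesterol (chr18:21086148-21166862, hg19, minus strand), read 4414, 4377 and 4709 units in siControl, 4214, 4402 and 3919 in siRNF40 and 3493, 3401 and 3348 in siTG2. Its siTG2 libraries were the lowest, at -0.40 ± 0.065 on the log2 scale (limma adjusted p = 0.00012), while siRNF40 overlapped siControl (-0.11, limma adjusted p = 0.19). C18orf8 overlaps NPC1 over 25599 bases on the other strand and was itself lower in siTG2, at -0.32 ± 0.094 (limma adjusted p = 0.013), and in siRNF40, at -0.39 ± 0.094 (limma adjusted p = 0.0020). STARD4, a cytosolic sterol carrier (chr5:110831731-110848288, hg19, minus strand), read 1399, 1506 and 1575 units in siControl, 1675, 1964 and 1592 in siRNF40 and 2172, 1879 and 2145 in siTG2. Both knockdown groups lay above the controls, with 0.47 ± 0.090 (limma adjusted p = 0.00055) in siTG2 and 0.22 ± 0.090 (limma adjusted p = 0.054) in siRNF40. The siRNF40 value passed the threshold in 5 of 19 alternatives, DESeq2 (adjusted p = 0.040) among them. Its antisense neighbour STARD4-AS1 read 19.8 ± 6.82 units in siControl and 59.5 ± 8.60 in siTG2 (n = 3). SOAT1, which esterifies cholesterol for storage, had log2 fold changes of -0.06 and 0.02 and was called in neither.

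**Figure D2:**
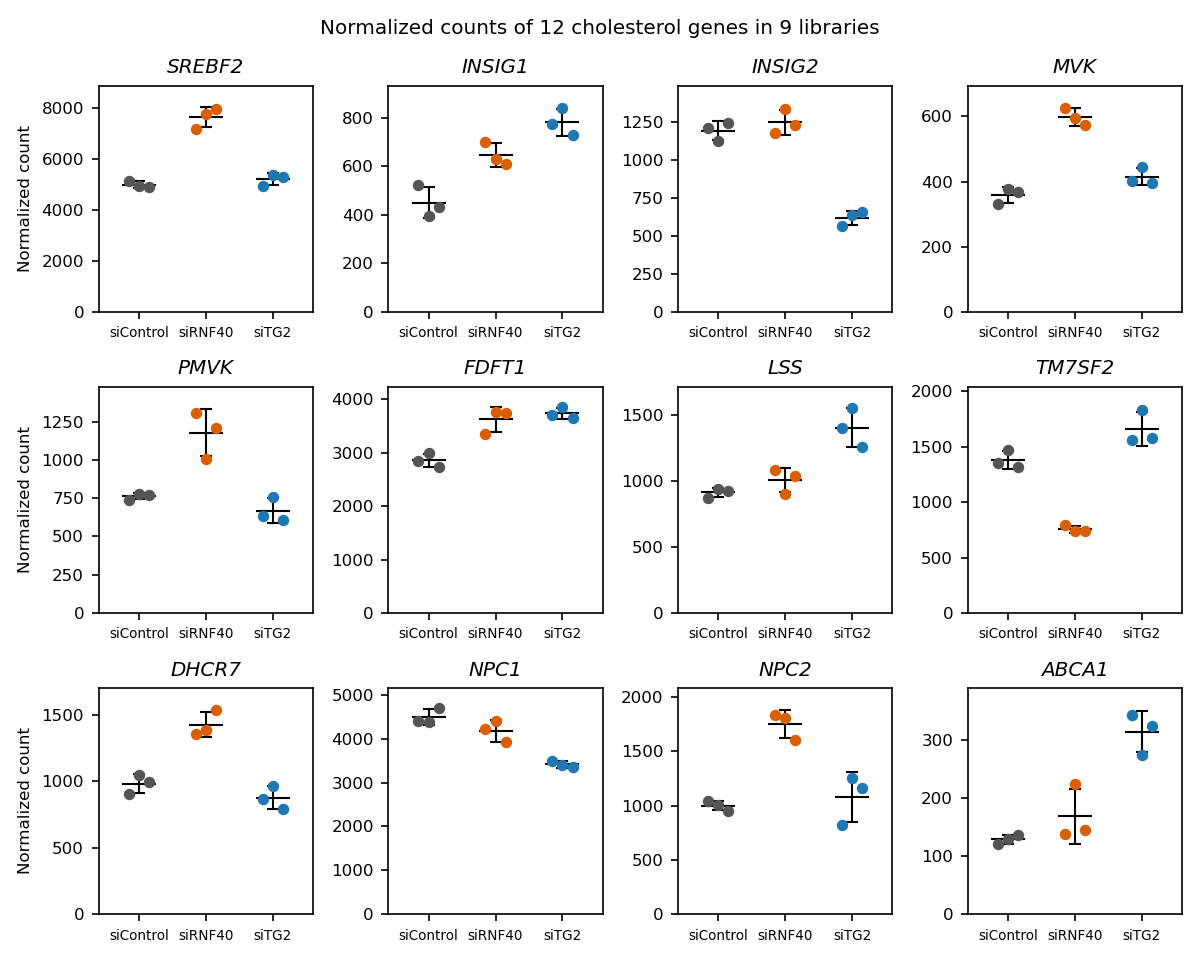
Normalized counts (vertical axes, each from 0) of 12 genes in the 3 libraries of each group, as points, with the mean (bar) and SD (whisker). SREBF2, MVK, PMVK, DHCR7 and NPC2 stand high in siRNF40 and TM7SF2 low, while LSS and ABCA1 stand high and INSIG2 and NPC1 low in siTG2.

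**Figure D3:**
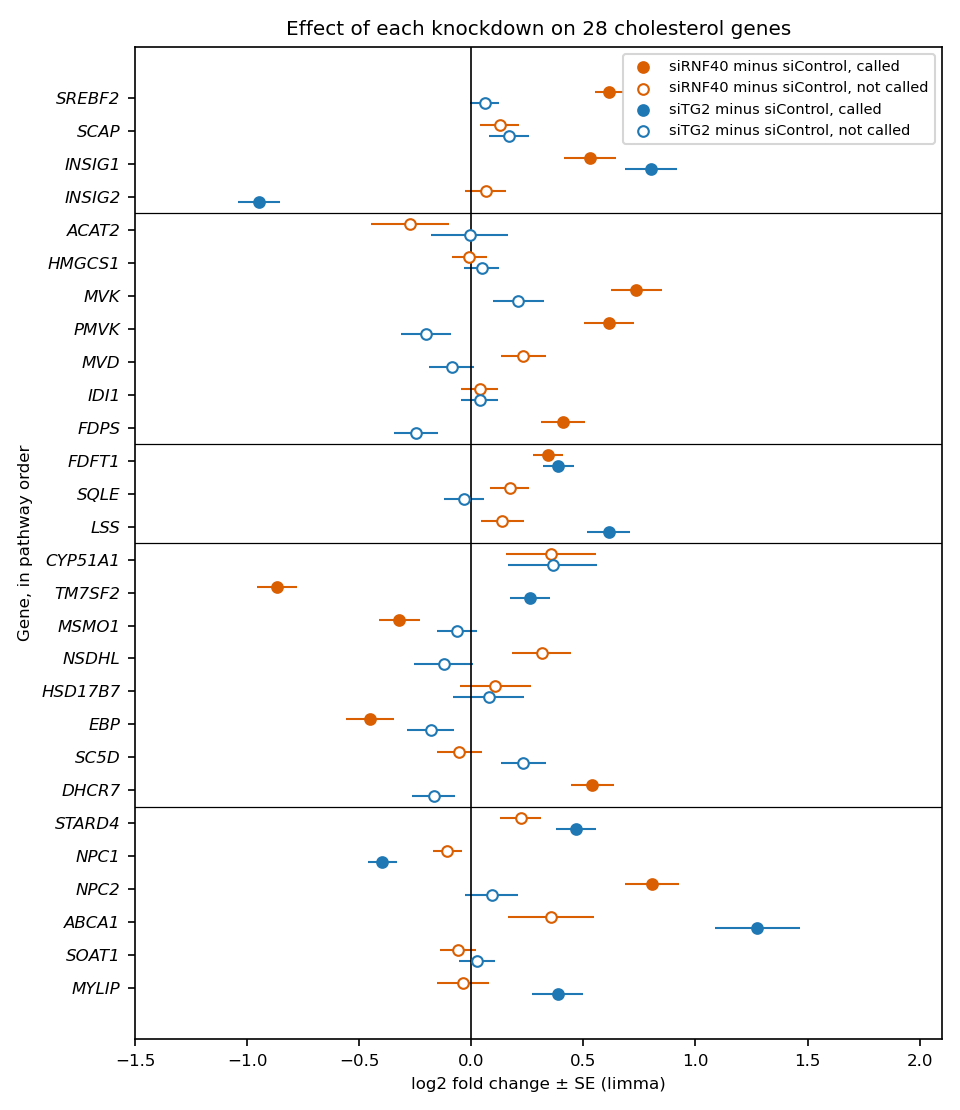
Log2 fold change against siControl with its limma standard error (horizontal axis) for the 28 genes in pathway order (vertical axis), orange for siRNF40 and blue for siTG2, filled where called. The largest values are 1.28 for ABCA1 in siTG2 and -0.95 for INSIG2 in siTG2, and the 7 mevalonate genes hold no filled blue point.

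The difference between the knockdowns was tested directly, siRNF40 against siTG2, a contrast that shares its libraries with both others. Of the 28 genes, 10 were higher in siRNF40 than in siTG2, 8 were lower and 10 were not called, beside 53.3% of all genes called, 26.6% in each direction. Groups did not overlap for 17 of the 28, beside 58.3% of all genes. The median log2 difference was -0.02, beside -0.01 over all genes. INSIG2 differed by 1.01 ± 0.092 (limma adjusted p = 2.8e-08) and TM7SF2 by -1.13 ± 0.088 (limma adjusted p = 3.5e-09), the largest differences in each direction. ABCA1 was lower in siRNF40 than in siTG2 by 0.92 ± 0.19 on the log2 scale (limma adjusted p = 0.00043), as were LSS, by 0.47 ± 0.097 (limma adjusted p = 0.00038), and MYLIP, by 0.42 ± 0.11 (limma adjusted p = 0.0042). In the mevalonate arm 4 of 7 genes were higher in siRNF40 than in siTG2 and none was called lower. With equal library totals, however, HMGCS1 (-0.23, limma adjusted p = 0.017) and ACAT2 (-0.44, limma adjusted p = 0.034) were called lower. The 4 genes were PMVK at 0.82, FDPS at 0.66, MVK at 0.53 and MVD at 0.32, with limma adjusted p-values of 4.2e-06, 1.6e-05, 0.00064 and 0.011. MVD lost its call with equal library totals (0.14, limma adjusted p = 0.24) and without siRNF40 replicate 3 (0.21, limma adjusted p = 0.070). NPC2 (0.72), DHCR7 (0.71), SREBF2 (0.55), NSDHL (0.44) and NPC1 (0.29) complete the genes higher in siRNF40, of which NSDHL (0.26, limma adjusted p = 0.096) and NPC1 (0.11, limma adjusted p = 0.15) lost the call with equal library totals. EBP (-0.27), MSMO1 (-0.26), STARD4 (-0.25) and SC5D (-0.29) complete those lower in siRNF40. These 4 calls did not hold throughout: EBP lost its call in 10 of 19 alternatives, STARD4 in 4, MSMO1 in 3 and SC5D in 2 (-0.14 without siRNF40 replicate 3). INSIG1 and FDFT1, with the values against siControl given above, differed between siRNF40 and siTG2 by -0.27 ± 0.12 (limma adjusted p = 0.056) and -0.05 ± 0.069 (limma adjusted p = 0.61). INSIG1 was called lower in 9 of 19 alternatives, edgeR (adjusted p = 0.029), DESeq2 (adjusted p = 0.041) and equal library totals (-0.45, limma adjusted p = 0.0028) among them. FDFT1 stood at -0.22 with equal library totals (limma adjusted p = 0.011). CYP51A1 stood at -0.01 ± 0.20, and without siRNF40 replicate 3 at 0.34 ± 0.13 (limma adjusted p = 0.042). The 8 lower calls became 5 without siRNF40 replicate 3, and 5 without siTG2 replicate 3. With libraries scaled to equal totals, 7 genes were called higher and 14 lower.

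Levels of different genes were compared per kb of exon, as normalized counts divided by the exon length of GENCODE 29. That length joins the exons of all annotated transcripts of a gene, for example 6.48 kb for MVK and 1.28 kb for PMVK. It can exceed the length of the transcripts present in these cells, so the order of genes depends on this choice. In siControl the highest was MSMO1, at 870 ± 53.2 units per kb (SD, n = 3), followed by SREBF2 at 660.2 ± 17.3, PMVK at 597 ± 16.6, FDFT1 at 549 ± 24.3 and NPC1 at 445 ± 18.0. From MSMO1 to NPC1 each neighbour was set apart from the next by more than their SDs. From TM7SF2 (405 ± 23.3) through HMGCS1, SQLE and NPC2 to IDI1 (350.5 ± 14.5) the means ± SD of neighbours overlapped. The lowest levels per kb were those of ACAT2 (69.2 ± 4.95), HSD17B7 (65.6 ± 4.02), MVK (55.4 ± 3.83) and ABCA1 (11.3 ± 0.662), of which ACAT2 and HSD17B7 overlapped. In siRNF40 SREBF2 and PMVK, at 1011 ± 53.2 and 919.5 ± 120.0 units per kb, stood above MSMO1 at 699 ± 84.2. ABCA1, the member that rose most, was still the lowest of the 28 in siTG2, at 27.6 ± 3.11 units per kb.

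**Figure D4:**
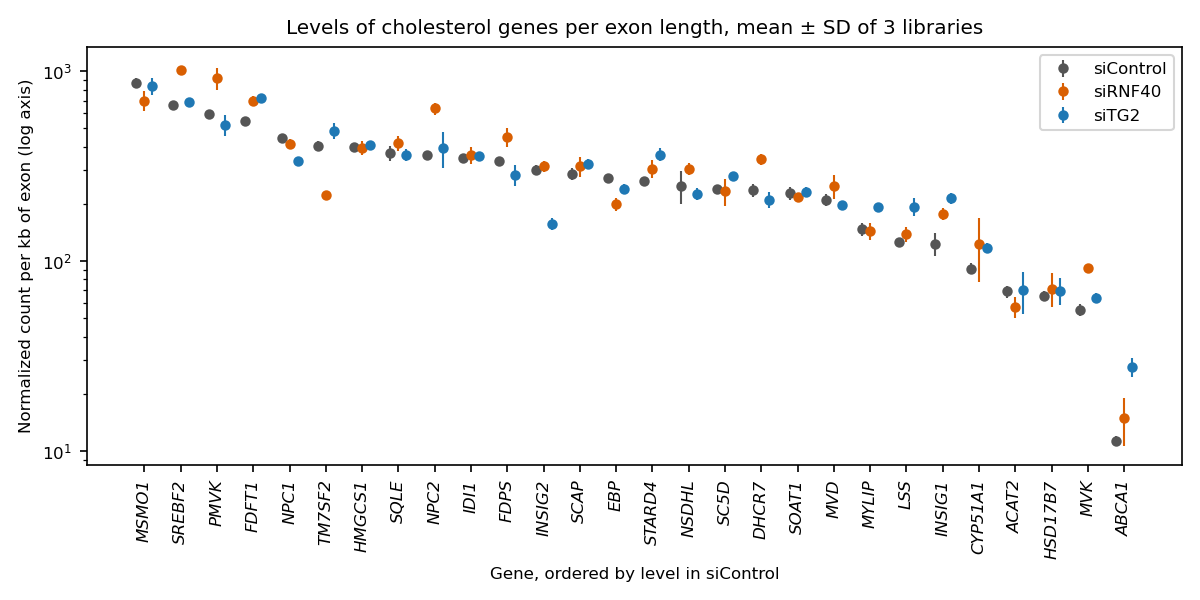
Normalized count per kb of exon (vertical axis, log scale) for the 28 genes, ordered by their siControl level (horizontal axis), as mean ± SD of 3 libraries per group. MSMO1 at 870 and ABCA1 at 11.3 units per kb are the ends of the siControl order, and ABCA1 remains at the low end in all groups.

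Other genes of the pathway came from a fixed list of 45 textbook genes, of which 42 were tested (IDI2, SOAT2 and CH25H fell below the minimum). In siRNF40, 10 of the 42 were called higher, 16 lower and 16 were not called, with a median log2 fold change of -0.13. Over all genes tested 21.7% were higher and 23.6% lower, with a median of 0.02. In siTG2, 6 were higher, 13 lower and 23 not called, with a median of -0.14, beside 12.8% higher, 18.5% lower and a median of -0.01 over all genes. The sublists below are small and are given as counts to be read against those shares. Of 6 genes of sterol-regulated degradation in the endoplasmic reticulum, 1 was higher and 4 lower in siRNF40, and 2 were lower in siTG2. Among 14 tested genes of sterol transport, storage and export, 3 were higher and 7 lower in siRNF40, and 4 were higher and 5 lower in siTG2. NCEH1, which hydrolyses cholesterol esters, read 1234 ± 74.6 units in siControl, 537 ± 43.9 in siRNF40 and 776 ± 11.6 in siTG2 (SD, n = 3). Its log2 fold change was -1.20 in siRNF40 (limma adjusted p = 7.3e-09) and -0.67 in siTG2 (limma adjusted p = 2.4e-05). OSBPL2, an oxysterol-binding lipid carrier, fell by 1.05 in siRNF40 (limma adjusted p = 3.1e-09) and by 0.55 in siTG2 (limma adjusted p = 2.1e-05). GRAMD1C, which moves sterol from the plasma membrane to the endoplasmic reticulum, fell by 1.10 in siRNF40 (limma adjusted p = 3.8e-06) and was higher by 0.57 in siTG2 (limma adjusted p = 0.0044). SCARB1, the receptor that takes up cholesterol from high-density lipoprotein, fell by 0.54 in siRNF40 (limma adjusted p = 1.2e-05) and by 0.92 in siTG2 (limma adjusted p = 3.3e-08). ABCG1, an exporter that like ABCA1 is a target of the liver X receptors, read 131, 86.4 and 113 units in siControl, 118, 87.9 and 122 in siRNF40 and 195, 132 and 206 in siTG2. All siTG2 libraries lay above all others, with a log2 fold change of 0.68 ± 0.23 (limma adjusted p = 0.030), and siRNF40 overlapped siControl. In the isoprenoid branch, 2 of 9 genes were higher and 2 lower in siRNF40, and 1 was higher and 3 lower in siTG2. PDSS1, which builds the side chain of coenzyme Q, was higher by 0.49 in siRNF40 (limma adjusted p = 0.016) and fell by 0.79 in siTG2 (limma adjusted p = 0.00076). Of the 6 protease and liver X receptor genes, 2 were higher and 1 lower in siRNF40 and 2 were lower in siTG2, and of 7 other sterol enzymes, 2 were higher and 2 lower in siRNF40 and 1 was higher and 1 lower in siTG2.

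**Figure D5:**
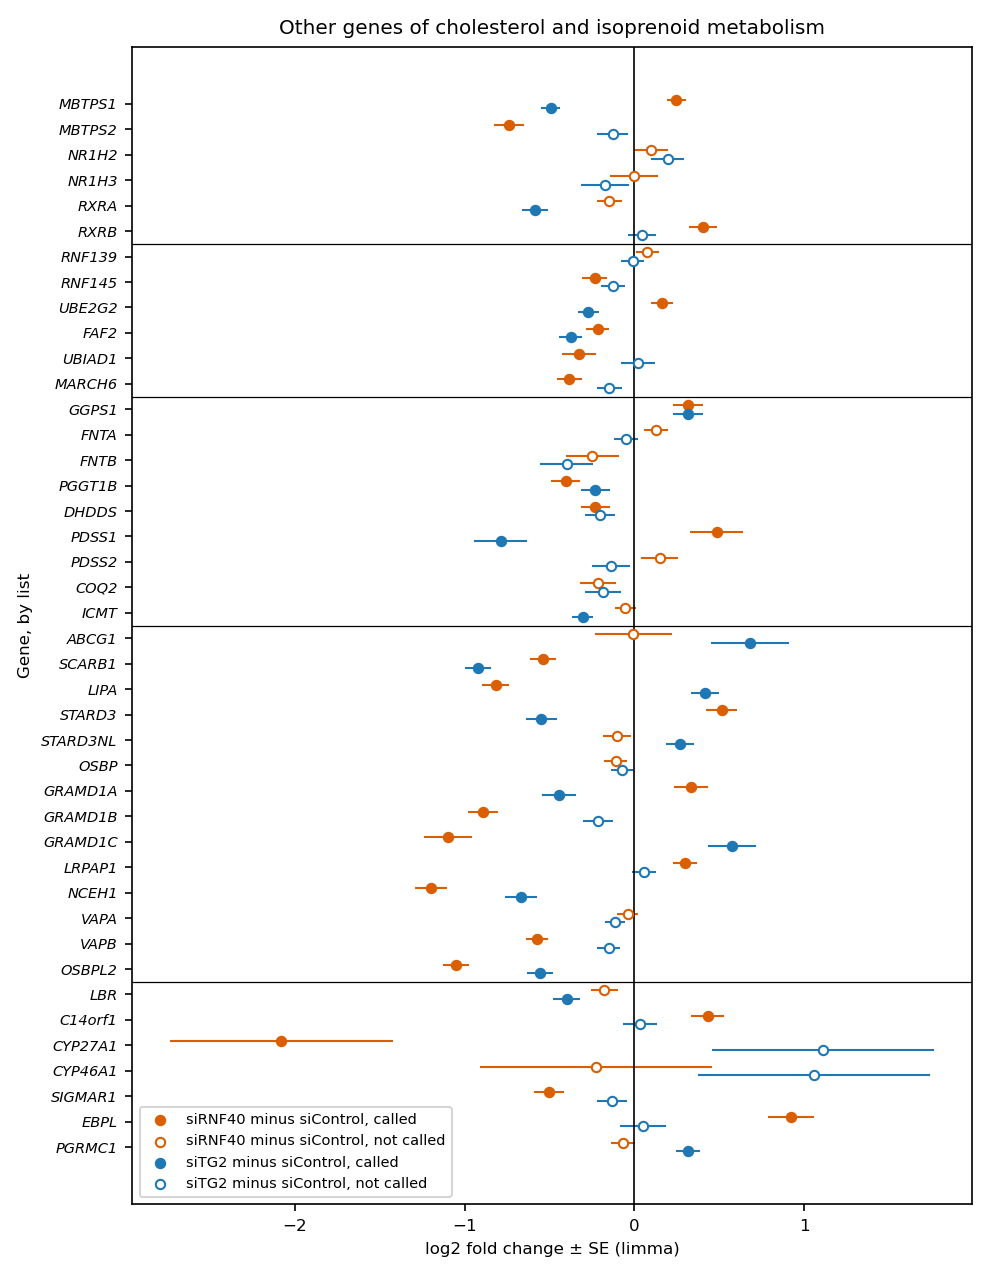
Log2 fold change against siControl with its limma standard error (horizontal axis) for 42 other genes of cholesterol and isoprenoid metabolism (vertical axis, lines part the lists), orange for siRNF40 and blue for siTG2, filled where called. NCEH1 at -1.20 in siRNF40 and SCARB1 at -0.92 in siTG2 are among the low points, and the bars of CYP27A1 and CYP46A1 are wide.

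For each knockdown, the share of genes called lower is given with and without a 7-base word in the 3′ UTR, over 13339 genes whose 3′ UTR had 50 bases or more. The word differed between the knockdowns, and both words were chosen with earlier results of these data known, so the shares are descriptions. A gene was counted as holding a word if any of its annotated 3′ UTRs of that length did. Longer 3′ UTRs have more places for a word, and the shares were not matched for length. The word GTCTTCA was in the 3′ UTR of 19.5% of genes, and 49.0% of the genes with it were called lower in siRNF40, beside 23.8% of those without it. Among the 28 cholesterol genes it was in 2, INSIG1 and NPC2, both of which rose in siRNF40, and it was in none of TM7SF2, MSMO1 and EBP, which fell. Among the 42 other pathway genes tested 15 hold it, of which 11 were called lower in siRNF40 (NCEH1, OSBPL2 and GRAMD1C among them), 1 was higher (RXRB) and 3 were not called (FNTA, VAPA and CYP46A1). The word GCGCCCT was in 4.98% of genes, and 37.8% of those with it were called lower in siTG2, beside 22% of those without it. It was in 0 of the 28 genes, so in neither INSIG2 nor NPC1, and in 5 of the other pathway genes, of which 4 were called lower in siTG2 (SCARB1 among them) and 1 was not called (GRAMD1B). The part of these words in the results was not tested.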

How the data were processed

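Per the submitters' processing notes, the authors used Trim Galore 0.4.1, STAR 2.7.0, HTSeq 0.12.4 and DESeq2, and the builds hg19 and hg38 are both named. Gene positions in the table are those of hg19. The authors deposited a signal, read counts scaled by a size factor for each library, for 63677 genes in 9 libraries. Its NC columns were taken as siControl. All values (100%) were within 0.001 reads of whole counts, so reads were recovered for count tests. The authors also deposited DESeq2 tables of log2 fold changes with p-values, which at an adjusted p under 0.05 call the same 11 and 9 of the 28 genes.

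limma 3.58.1 (R 4.3.3) with an intensity trend was fitted to log2(value + 1) of all 9 libraries with 3 group means, two-sided, for the 17663 genes with a mean of at least 10, with Benjamini-Hochberg adjustment across all genes. Members, lists and words were chosen with earlier results of these data known. All 28 members could be named. Of the other pathway genes, the text names per knockdown up to 3 called ones with a mean of 50 or more, by size of change; 1 gene of that list is not reported here. Alternatives were other pseudocounts, filters and scalings, edgeR 4.0.16, DESeq2 1.42.0, separate fits, a replicate block and leaving out each library. Exon lengths and 3′ UTRs came from GENCODE 29, joined by gene ID. Promoters came from RefSeq (GRCh38.p14). Python 3.11.15 was used.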

Additional observations from a re-analysis of the deposited data

How the results depend on the processing

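All 11 siRNF40 calls among the 28 genes held under the 19 alternatives, which included leaving out siRNF40 replicate 1, the library with 7842 units of RN7SL2 beside 2760 and 2689 in its group. A further 5 genes (CYP51A1, MVD, NSDHL, SQLE and STARD4) were called higher in siRNF40 in some alternatives, with 12 called higher under quantile normalization beside 8. In siTG2, 7 of 9 calls held throughout; those of TM7SF2 and MYLIP did not, 7 others were called in some, and TM7SF2 was also lost with no filter on low values (adjusted p = 0.051). In siRNF40 against siTG2, 11 of 18 held throughout. Scaling to equal library totals moved the median of all genes from -0.01 to 0.14 in siTG2 and to -0.19 in siRNF40 against siTG2. With it, 3879 genes were called higher and 1890 lower in siTG2 (67.2% of calls higher, beside 40.9% as reported and 49.9% with quantile normalization). The same scaling gave 11 cholesterol genes called higher in siTG2 and 14 called lower in siRNF40 against siTG2, where 34.1% of all calls were higher, beside 49.99% as reported. SREBF2 in siTG2 was then called, at 0.20, as it was with quantile normalization, at 0.23. Leaving out single libraries gave 5 to 9 cholesterol genes lower in siRNF40 against siTG2. CYP51A1 in that contrast ranged from -0.24 without siRNF40 replicate 1 to 0.34 without replicate 3, beside -0.01. Same-numbered libraries did not deviate together (r from -0.08 to 0.08 over 9 pairs, beside -0.08 to 0.09 over 18 other pairs). With a replicate block, 3693 genes were called higher and 4042 lower in siRNF40, 2122 and 3042 in siTG2, and 4594 and 4609 in siRNF40 against siTG2, and EBP in the last stood at adjusted p = 0.051. No outlier test was run, since groups of 3 are too small for it. At this depth the lowest of the 28 genes, ABCA1, still read 120 units or more in each library.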

Other observations

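A pair of genes from the list of other pathway genes is given here because their calls had opposite signs in the knockdowns; they were chosen after their values were seen. LIPA, the lysosomal acid lipase that frees cholesterol from its esters, read 1601 ± 74.6 units in siControl, 909 ± 77.0 in siRNF40 and 2138 ± 54.0 in siTG2 (SD, n = 3). It was called lower in siRNF40 (log2 fold change -0.82 ± 0.082, limma adjusted p = 1.6e-07) and higher in siTG2 (0.42 ± 0.082, limma adjusted p = 0.00064). STARD3, a late endosomal sterol carrier, read 1093 ± 85.8, 1565 ± 137 and 745 ± 28.7 units, the opposite order. The difference between the knockdowns was -1.24 ± 0.082 for LIPA (limma adjusted p = 3.6e-10) and 1.07 ± 0.092 for STARD3 (limma adjusted p = 1.3e-08).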
